A study of Mus musculus with 8 samples.

Results

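The genes of elastic fibers and of the microfibrils that carry them are described here through 10 members, which are Fbn1, Fbn2, Eln, Fbln1, Fbln2, Fbln5, Mfap2, Mfap4, Mfap5 and Emilin1. They were taken by symbol from the deposited table of 15047 genes, and 10 of 10 were found in it. Elastic fibers consist of a core of cross-linked elastin laid on a scaffold of microfibrils, and they give vessels, ducts and loose connective tissue their recoil. Fibrillins polymerize into the microfibrils, small glycoproteins of the MFAP family decorate them, fibulins and EMILINs join microfibrils to elastin, and microfibrils also hold latent TGF-beta in the matrix. In the pancreas such matrix genes are transcribed mainly by fibroblasts, stellate cells and the smooth muscle of vessels, while most of the RNA of the organ comes from acinar cells, which make digestive enzymes.

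The RNA-Seq libraries came from the pancreas of 8 male mice. C57BL/6 WT mice were placed at 4 weeks of age on a low-fat diet (LFD, n = 3) or on a high-fat diet with 60% of its calories from fat (HFD, n = 3), each for 10 weeks. The leptin-deficient mice (C57BL/6J; ob/ob, n = 2), also 4 weeks old when the groups were formed, ate standard chow, so that genotype and chow cannot be told apart in the comparison of ob/ob with LFD. Per the study's text, all 3 groups carried transplants of mT organoids, grown from mouse pancreatic tumors. The tissue is therefore a mixture of host pancreas and graft-derived lesion, and the libraries do not separate host from graft RNA. Values are rlog values, a log2-scale transform of gene counts that corrects for library size and shrinks differences of genes with few reads. They are not scaled by transcript length, so levels are compared between mice for a gene and never between genes, and the sequencing depth behind them is unknown.

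The libraries differed in their acinar content. The mean rlog value of 17 acinar marker genes was between 18.2 and 18.6 in the LFD mice, 18.4, 16.4 and 14.4 in the HFD mice (replicates 1 to 3), and 17.7 and 14.8 in the ob/ob mice (replicates 1 and 2). HFD replicate 1 thus lay within the LFD range for acinar genes, and it is set apart from the other 4 obese mice in what follows. In a bulk sample, fewer cells of a type and less RNA per cell cannot be told apart. The mean of 8 fibroblast markers moved the other way, from 9.66 to 10.04 in LFD, 10.4 to 11.1 in HFD and 10.7 to 11.6 in ob/ob. HFD replicate 1, at 10.4, was above every LFD mouse for this mean. Of the 8 markers, 6 were higher in obese mice with an unadjusted p-value under 0.05 (limma), as were 14.5% of all genes. The mean of the 7 smooth muscle markers in the table overlapped between groups, at 5.44 to 6.38 in LFD, 5.56 to 7.05 in HFD and 6.04 to 6.34 in ob/ob. Of the 7, Acta2 (0.92) and Tagln (1.03), both also made by activated fibroblasts, were higher in obese mice at the same threshold. Myh11 (-0.32) and Lmod1 (-0.17) went the other way without reaching it. Acta2, Tagln and Smtn did not overlap between ob/ob and LFD, with ob/ob higher, as did 24.1% of all genes. rlog values do not show whether a gene had no reads in a mouse, and the part of cell composition in the differences below was not tested beyond the values given beside them.

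Across the 10 genes the mean rlog value was 6.90, 6.87 and 6.51 in the LFD mice, 7.20, 7.87 and 8.19 in the HFD mice, and 7.84 and 8.23 in the ob/ob mice, each by replicate number. Each of the 5 obese mice exceeded the highest LFD mouse, and HFD replicate 1 came nearest to it. The 10 genes behaved in 3 ways. Fbn1, Fbn2, Mfap4 and Mfap5 were higher than in every LFD mouse in all 5 obese mice. Eln, Fbln2, Mfap2 and Emilin1 were above every LFD mouse in 4 obese mice but not in HFD replicate 1. Fbln1 exceeded every LFD mouse in 3 obese mice and Fbln5 in 1. In HFD replicate 1, 4 of the 10 genes lay above all LFD mice, where 26.4% of all genes did, and in each of the other obese mice 9 of 10 did, where 31.2% to 41.2% of all genes did.

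**Figure D1:**
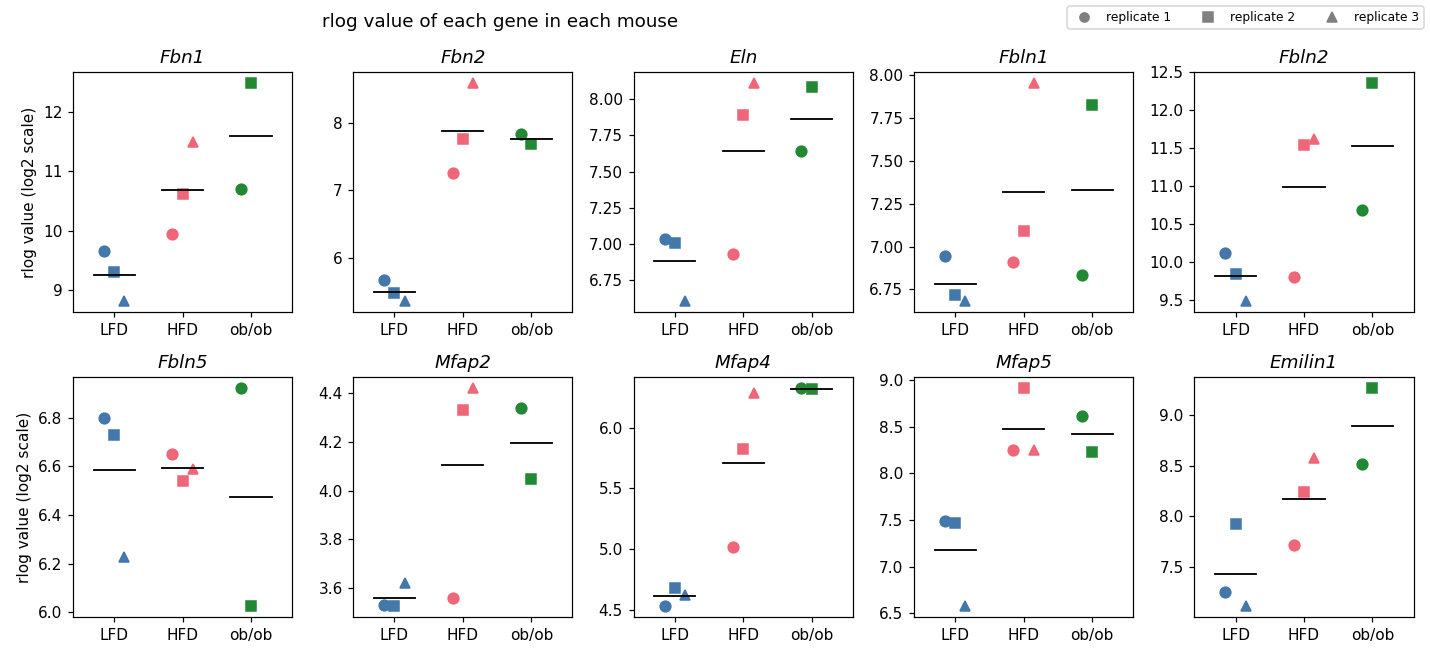
The rlog value (y axis, log2 scale, a separate scale for each gene) of the 10 genes in LFD, HFD and ob/ob mice, with 1 point per mouse, the symbol giving the replicate number and the line the group mean. Fbn2, Fbn1, Mfap4 and Mfap5 show no overlap between LFD and obese mice, and the circle of HFD replicate 1 sits with the LFD mice for Eln, Fbln2 and Mfap2.

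The fibrillins gave the largest differences of the 10 genes between the mean of both obese groups and LFD. Fbn2 encodes fibrillin 2, known best from microfibrils of developing tissue, and lies on chromosome 18. Its rlog value was 5.66, 5.47 and 5.35 in the LFD mice, 7.27, 7.77 and 8.60 in the HFD mice, and 7.84 and 7.69 in the ob/ob mice. The LFD and the obese mice were far apart, and the lowest obese mouse was 1.60 above the highest LFD mouse on the log2 scale. This lowest obese mouse was HFD replicate 1, the mouse whose acinar genes were in the LFD range. With limma the difference was 2.38 (standard error 0.33, adjusted p = 0.142) for HFD against LFD, 2.27 (standard error 0.36, adjusted p = 0.137) for ob/ob against LFD, and 2.33 (standard error 0.29, adjusted p = 0.0598) for the mean of both obese groups against LFD. In the last comparison the difference corresponds to 5.01-fold on the rlog scale, and Fbn2 ranked 7 of 15047 genes by p-value and 6 by size among those higher in obese mice, without passing an adjusted p-value of 0.05. Over the alternative settings of the fit this adjusted p-value (limma) ran from 0.0054 to 0.361.

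Fbn1 encodes fibrillin 1, the main fibrillin of adult microfibrils (chromosome 2 of GRCm38, 125300594 to 125507993, minus strand, Gencode M21). It was at 9.66, 9.30 and 8.82 in LFD, 9.95, 10.6 and 11.5 in HFD, and 10.7 and 12.5 in ob/ob. The HFD and ob/ob mice spread over a wider range than the LFD mice, and HFD replicate 1 exceeded the highest LFD mouse by 0.28. Its difference was 1.42 (standard error 0.51, adjusted p = 0.212) for HFD and 2.33 (standard error 0.57, adjusted p = 0.18) for ob/ob, each against LFD with limma. Without ob/ob replicate 2 the difference for ob/ob was 1.43, with the other ob/ob mouse alone. The difference between the 2 fibrillins within a mouse, Fbn2 minus Fbn1, was between -4.00 and -3.46 in LFD, between -2.89 and -2.68 in HFD, and -2.85 and -4.80 in the ob/ob mice. This quantity is compared between mice and does not show which gene had more transcripts. It was higher in the HFD mice and in ob/ob replicate 1 than in every LFD mouse, and lower than in every LFD mouse in ob/ob replicate 2, which had the highest Fbn1 value of all 8 mice.

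Among the microfibril-associated glycoproteins, Mfap5 and Mfap4 separated the LFD mice from the obese mice. Mfap5 (chromosome 6, 122505845 to 122529290) encodes a small glycoprotein that binds fibrillins, and its rlog value was 7.49, 7.47 and 6.57 in LFD, 8.25, 8.92 and 8.25 in HFD, and 8.62 and 8.23 in ob/ob. HFD replicate 1 had almost the same Mfap5 value as HFD replicate 3, which had the lowest acinar level of all mice. The difference from LFD was 1.29 (standard error 0.31, adjusted p = 0.176) in HFD and 1.25 (standard error 0.34, adjusted p = 0.194) in ob/ob (limma). Mfap4 (chromosome 11, 61485431 to 61488900), whose product binds elastin and fibrillin and is made by smooth muscle and fibroblasts, was at 4.53, 4.69 and 4.62 in LFD, 5.02, 5.83 and 6.28 in HFD, and 6.32 and 6.31 in ob/ob. The LFD mice lay close together. Both ob/ob mice were only slightly above the highest HFD mouse, replicate 3 at 6.28. The difference was 1.10 (standard error 0.33, adjusted p = 0.187) for HFD and 1.71 (standard error 0.37, adjusted p = 0.157) for ob/ob against LFD, and 0.61 (standard error 0.37, adjusted p = 1.00) for ob/ob against HFD with limma. Mfap2 (chromosome 4, 141010418 to 141015984), which encodes the other fibrillin-binding glycoprotein of this pair, had low values, where rlog shrinks differences. They were 3.53, 3.53 and 3.62 in LFD, 3.56, 4.33 and 4.42 in HFD, and 4.34 and 4.05 in ob/ob. Its difference of 0.54 in HFD and 0.63 in ob/ob had an unadjusted p-value of 0.104 and 0.0917 in the fit with limma.

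Eln encodes tropoelastin, the soluble precursor of the elastin core (chromosome 5, 134702593 to 134747323, minus strand). Its rlog value was 7.03, 7.01 and 6.61 in LFD, 6.93, 7.89 and 8.11 in HFD, and 7.64 and 8.08 in ob/ob. HFD replicate 1 was inside the LFD range and the other 4 obese mice were above it. The difference was 0.76 (standard error 0.32, adjusted p = 0.242) for HFD and 0.98 (standard error 0.36, adjusted p = 0.228) for ob/ob with limma. Emilin1 (chromosome 5, 30913402 to 30921277) encodes a glycoprotein at the border of elastin and microfibrils that restrains the maturation of TGF-beta, and it was at 7.25, 7.93 and 7.11 in LFD, 7.72, 8.24 and 8.57 in HFD, and 8.52 and 9.27 in ob/ob. LFD replicate 2 was above HFD replicate 1, and the ob/ob mice did not overlap with LFD. Emilin1 differed from LFD by 0.74 in HFD (standard error 0.32, adjusted p = 0.247) and by 1.46 in ob/ob (standard error 0.36, adjusted p = 0.179) with limma.

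The 3 fibulins were unlike each other. Fbln2 (chromosome 6, 91212455 to 91272540), whose product lies at the surface of elastic fibers and in basement membranes, was at 10.1, 9.84 and 9.48 in LFD, 9.80, 11.5 and 11.6 in HFD, and 10.7 and 12.4 in ob/ob. HFD replicate 1 was at the LFD mean, and HFD replicate 3 was 1.81 above it on the log2 scale. Its difference was 1.17 (standard error 0.55, adjusted p = 0.277) for HFD and 1.71 (standard error 0.62, adjusted p = 0.226) for ob/ob with limma, and these standard errors were the largest of the 10 genes. Fbln2 was at 1.77 for HFD without HFD replicate 1, and at 0.87 for ob/ob without ob/ob replicate 2. Fbln1 (chromosome 15, 85205949 to 85286535), found in the elastin core and around vessels, lay between 6.68 and 6.95 in LFD, between 6.91 and 7.96 in HFD, and at 6.83 and 7.83 in ob/ob. The highest values were those of HFD replicate 3 and ob/ob replicate 2, the 2 mice with the lowest acinar level, and the differences of 0.54 and 0.55 had adjusted p-values of 0.394 and 0.431 (limma). For HFD the difference of Fbln1 was 0.22 without HFD replicate 3, and for ob/ob it was 0.05 without replicate 2 and 1.05 without replicate 1. For the mean of both obese groups it was 0.54, and 0.29 without ob/ob replicate 2. Fbln5 (chromosome 12, 101746565 to 101819055, minus strand), whose product binds tropoelastin and is needed to assemble elastic fibers, was at 6.80, 6.73 and 6.23 in LFD, 6.65, 6.54 and 6.59 in HFD, and 6.92 and 6.02 in ob/ob. The 3 HFD mice lay inside the LFD range, and the ob/ob mice held the highest and the lowest value of all. The difference of Fbln5 between obese and LFD mice was -0.05, with a 95% interval from -0.64 to 0.54 (limma). A moderate change in either direction is therefore not excluded with these mice.

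**Figure D2:**
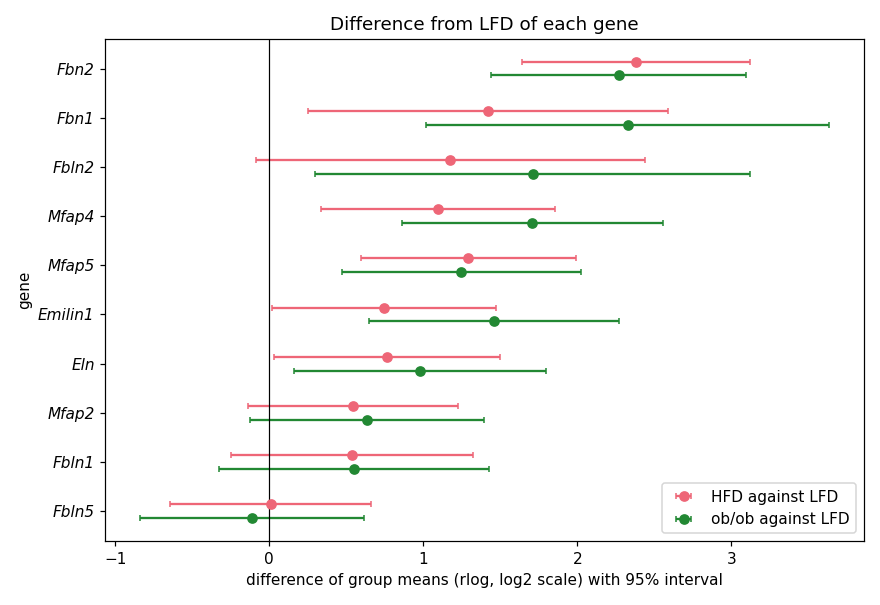
Difference of the HFD mean and of the ob/ob mean from the LFD mean for each gene (x axis, rlog, log2 scale; points, limma estimates from all 8 mice; bars, 95% intervals before any adjustment for the number of genes). Genes are ordered from Fbn2, at 2.38 in HFD and 2.27 in ob/ob, down to Fbln5, at 0.01 and -0.11, and both comparisons use the same LFD mice.

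Over the whole table, limma gave 0 genes with an adjusted p-value under 0.05 in any of the 4 comparisons (0% of 15047), and 0 of the 10 genes passed. The paper, which applied DESeq2 to gene counts, reports genes that differ in expression between these groups. Counts were not used here. The absence of calls therefore belongs to limma on rlog values and does not show that no gene differs. Array weights in limma let each mouse count by how well it fits its group. With them 8 of the 10 passed for HFD against LFD, as did 44.2% of all genes. For the mean of both obese groups against LFD 8 passed, as did 28.5%. The weights were 0.273, 9.36 and 0.529 for HFD replicates 1 to 3, so the weighted HFD mean rested mainly on 1 mouse. Before adjustment, 6 of the 10 genes were higher in HFD than in LFD with a p-value under 0.05 (Fbn1, Fbn2, Eln, Mfap4, Mfap5 and Emilin1), against 11.5% of all genes higher at the same threshold. For ob/ob against LFD this held for 7 of 10, the same 6 and Fbln2, against 11.6% of all genes. It held for the same 7 for the mean of both obese groups, against 14.5%. Between ob/ob and HFD it held for 0 of 10, against 2.28% of all genes, and the differences lay between -0.12 and 0.91. No gene of the 10 was lower with a p-value under 0.05 in a comparison. The median log2 difference of the 10 genes was 0.93 for HFD, 1.35 for ob/ob and 1.19 for the mean of both groups against LFD, and those of all genes were 0.03, 0.04 and 0.04. Counting mice in place of p-values, 4 of 10 genes did not overlap between HFD and LFD, with HFD higher, as did 12.9% of all genes. Between ob/ob and LFD 8 of 10 did not overlap (24.1% of all genes), and between all 5 obese and the 3 LFD mice 4 of 10 (9.4%). These comparisons share the LFD mice and are not independent of each other.

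**Figure D3:**
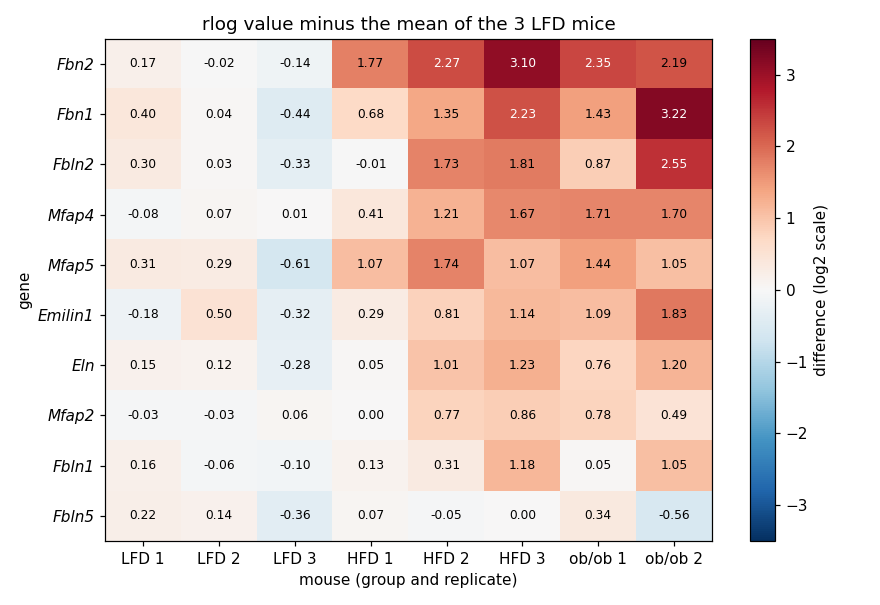
The rlog value of each gene in each mouse minus the mean of the 3 LFD mice (color and printed number, log2 scale), with genes ordered by their difference between obese and LFD mice. In the column of HFD replicate 1, Fbn2 is at 1.77 and Mfap5 at 1.07, whereas Eln, Fbln2, Mfap2 and Fbln5 are between -0.01 and 0.07.

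The calls rested on which mice entered the fit. Without HFD replicate 1, Fbn1, Fbn2, Eln, Fbln2, Mfap4 and Mfap5 (6 of 10) passed an adjusted p-value of 0.05 for HFD against LFD, among 2812 genes or 18.7% of the whole table, and 7 of 10 did for the mean of both obese groups, the same 6 and Emilin1, among 3326 or 22.1%. For ob/ob against LFD, Fbn2 and Mfap4 then passed among 89 genes (0.591%), since the HFD mice take part in the estimate of the spread. Without ob/ob replicate 1, Fbn1 and Fbn2 passed for the mean of both obese groups, with adjusted p-values of 0.0454 and 0.0444 (limma), among 476 genes (3.16%). That fit has 1 ob/ob mouse, which is assumed to vary like the mice of the other groups. Leaving out any 1 of the LFD mice, HFD replicate 2, HFD replicate 3 or ob/ob replicate 2 left 0 of 10 genes in these 3 comparisons. Each of these fits has fewer mice than the full fit, and HFD replicate 1 was the obese mouse with acinar genes in the LFD range.

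When the acinar level of each mouse entered the fit as a covariate, most of the differences between obese and LFD mice became smaller, to unequal extents. Mfap5 kept a difference of 1.32 (1.27 without the covariate), Fbn2 of 1.92 (2.33 without) and Mfap4 of 1.00 (1.40 without). Fbn1 went from 1.87 to 0.92, Emilin1 from 1.10 to 0.64 and Eln from 0.87 to 0.37. Fbln2 went from 1.44 to 0.43, and Fbln1 from 0.54 to -0.04, a change of sign. No gene of the 10 had an adjusted p-value under 0.05 in this fit, and the lowest was 0.0721 for Fbn2 (limma). The acinar level itself differed between the groups, so that its part and that of obesity cannot be told apart with 8 mice.

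**Figure D4:**
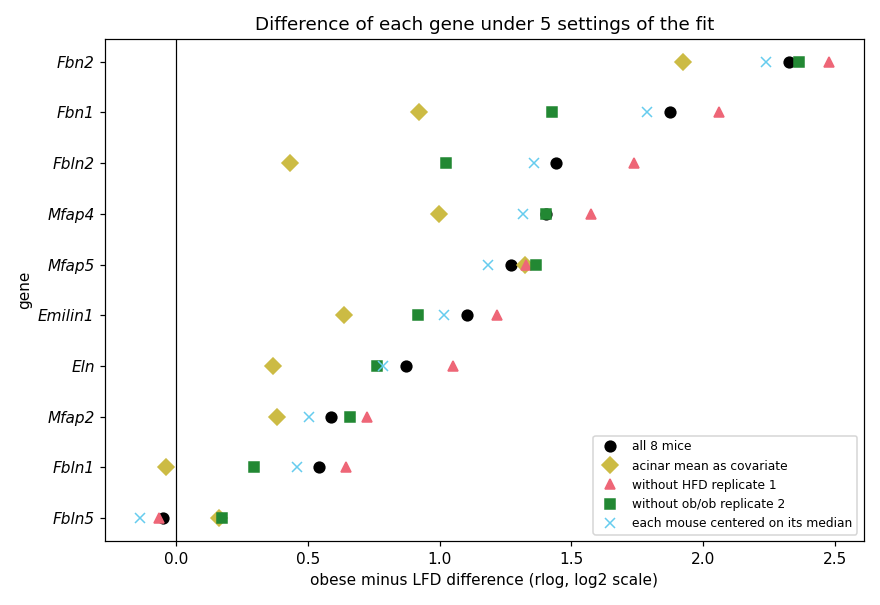
Difference between obese and LFD mice (x axis, rlog, log2 scale) of each gene with all 8 mice, with the acinar mean as a covariate, without HFD replicate 1, without ob/ob replicate 2, and with each mouse centered on its median. The diamonds of the acinar covariate lie far to the left of the other symbols for Fbn1, Fbln2 and Eln. They are at a negative value for Fbln1 and close to the other symbols for Mfap5.

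Genes that act with the 10 on elastic fibers were read from 6 lists with 42 of 44 genes in the table. For the mean of both obese groups against LFD, 23 of the 42 were higher and 1 was lower with an unadjusted p-value under 0.05 (limma), 0 had an adjusted one, and their median difference was 0.87. Of all genes 14.5% were higher at this threshold, against which the counts of each list below are to be read. The 5 cross-linking enzymes of the lysyl oxidase family, which tie elastin and collagen chains together, were 5 of 5 higher at this threshold. Lox was higher by 2.14 (standard error 0.30) and Loxl2 by 1.92 (standard error 0.46). For each of the 5 enzymes every obese mouse, HFD replicate 1 included, exceeded the highest LFD mouse, as held for 9.4% of all genes. The margin of HFD replicate 1 was small for Loxl1 (6.68 against 6.65) and Loxl4 (4.94 against 4.81). It was larger for the other enzymes. Of the 4 latent TGF-beta binding proteins, which dock TGF-beta on microfibrils, 1 was higher at this threshold, a share near that of all genes. It was Ltbp2, at 1.67 (standard error 0.48), while Ltbp1 was at 0.99 (adjusted p = 0.234, limma) and Ltbp4, which assists elastin assembly, was at -0.32 (adjusted p = 0.385, limma). Among 7 relatives of the fibulins and EMILINs, 3 were higher at this threshold, with Efemp2 (fibulin 4, which brings Lox to tropoelastin) at 1.19 and Emilin2 at 1.05, and the lowest was Mmrn1 at -0.40 (adjusted p = 0.354, limma). The 8 microfibril-associated genes of the ADAMTS family went both ways, with Adamts6 at 1.24 higher and Adamts17 at -0.82 lower at this threshold, so that the share higher was near that of all genes.

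**Figure D5:**
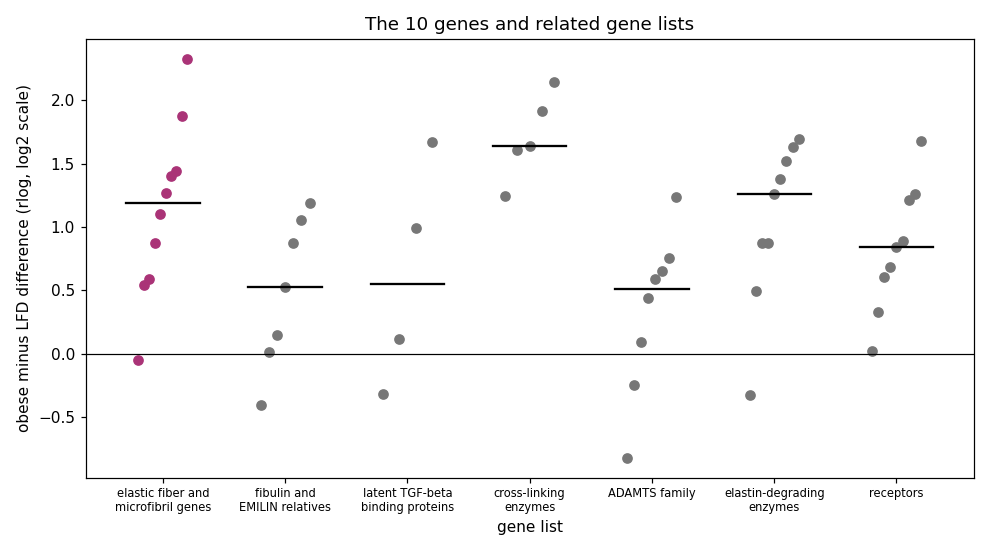
Difference between obese and LFD mice (y axis, rlog, log2 scale) of the 10 genes and of the genes of 6 related lists, with 1 point per gene and the list median as a line. The 5 cross-linking enzymes lie between 1.25 and 2.14, and the ADAMTS family lies on both sides of 0.

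Of 9 enzymes outside acinar cells that can degrade elastin, 7 were higher in obese mice with an unadjusted p-value under 0.05 (limma), against the same 14.5% of all genes. Mmp12, the elastase of macrophages, was higher by 1.70 (standard error 0.52) and Mmp9, a gelatinase of neutrophils and macrophages, by 1.63 (standard error 0.40), whereas the lysosomal protease Ctsl was at -0.32 (adjusted p = 0.445, limma). The mean of 6 macrophage markers was between 8.42 and 8.95 in LFD, 9.06 and 9.85 in HFD, and 9.95 and 10.5 in ob/ob, and 5 of the 6 were higher in obese mice at this threshold. Their part in the values of Mmp12 and Mmp9 was not tested. Of 9 receptors for elastic fiber proteins, 6 were higher at this threshold (14.5% of all genes), with Lgals3 (galectin 3) at 1.68 and the integrin subunit Itga5 at 1.26.

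The fibroblast markers were not alike either. Col1a1, Col1a2, Col3a1 and Lum were above every LFD mouse in all 5 obese mice, as were 9.4% of all genes. Their differences were 2.17, 1.70, 1.68 and 1.12. Dcn and Dpt, both abundant in resting fibroblasts, were at -0.01 and 0.14, with adjusted p-values of 0.984 and 0.652 in limma. Pdgfra (0.74) and Pdgfrb (0.98) lay between these sets and overlapped with LFD. As a difference of group means, Fbln5, at -0.05, lay nearer to Dcn and Dpt than to the collagens. By mouse these genes ran apart. The lowest Fbln5 value of all mice (6.02) and the highest Dcn (12.9) and Dpt (9.85) values were those of ob/ob replicate 2. The difference of Fbn2, 2.33, lay nearer to that of Col1a1. A link to the state of the fibroblasts was not tested.

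The genes outside the 10 whose centered values were closest to the mean of the 10 over the 8 mice were Rrm1, Igfbp4 and Dse, with root mean square differences of 0.08, 0.10 and 0.10 on the log2 scale, among 15037 genes. Of the 10 genes themselves, Eln was closest to their mean, with 0.15, and Fbln5 was farthest, with 0.72, followed by Fbn2 with 0.65. In Gencode M21 an annotated gene on the opposite strand overlaps Fbn1, Fbn2, Eln and Mfap4. The overlapping gene of Mfap4, Mapk7, is in the table. Overlap was read from whole genes and not from exons. Some uncertainty of read assignment may remain for these genes, and its extent was not tested.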

How the data were processed

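Total RNA of the pancreas of 8 mice was sequenced in paired-end libraries. After read checks in FASTQC, the authors ran Salmon 0.11.3 against the transcripts of Gencode M18 (GRCm38.p6), summarized the estimates per gene with tximport, and deposited rlog values of DESeq2 1.22.2 on the log2 scale. The filter that left 15047 symbols is not given in the sources used here. Each column matched 1 sample by its title. Counts were not used, so depth is unknown and the spread between mice is the only error given. Replicates are different animals as far as the labels go.

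From these values, limma 3.58.1 (R 4.3.3) was fitted to all genes and all 8 mice, with a mean per group and a variance trend. Obese against LFD is the mean of the HFD and ob/ob means minus LFD. p-values were adjusted over all 15047 genes with the Benjamini-Hochberg method. The fit was tested on simulated data. Figures were drawn with matplotlib 3.10.9. Coordinates are from Gencode M21 on GRCm38, and those of Fbn2 are not printed.

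The 10 genes and the lists of related genes and markers were chosen with earlier results of these data known, and give no independent support. All 10 genes are named. From each related list, up to 2 genes with the largest difference in obese mice, and the largest of opposite sign, are named. Loxl1 and Loxl4 are named besides, for their small margin in HFD replicate 1. The marker genes named singly and the overlapping gene were chosen after their values were seen. The likeness to the mean of the 10 is the root mean square difference of centered values, for the 3 closest genes.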

Additional observations from a re-analysis of the deposited data

How the results depend on the processing

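The alternatives were a constant prior variance, a minimum of 5 for the mean rlog value (which leaves out Mfap2), centering each mouse on its median, limma's array weights, the acinar mean as a covariate, the replicate number as a block, and leaving out each mouse in turn. With array weights, which gave HFD replicate 2 a weight of 9.36 and HFD replicate 1 one of 0.273, 8 of 10 passed an adjusted p-value of 0.05 for HFD against LFD, and 8 for obese against LFD, among 6656 and 4286 of all genes. With the acinar covariate, 2 genes had an unadjusted p-value under 0.05 for HFD against LFD, as did 2 when ob/ob was compared with HFD, the medians of the 10 were 0.32 (HFD), 0.82 (ob/ob) and 0.53 (obese) against LFD, and 1 gene of the whole table had an adjusted p-value under 0.05 in each comparison except HFD against LFD. The replicate numbers were not taken to pair the mice, as the deviations of mice with the same number did not correlate in every pair (-0.06, 0.11 and -0.28 for LFD with HFD, -0.10 and 0.13 for LFD with ob/ob, 0.59 and 0.30 for HFD with ob/ob). With the replicate number as a block, 1 of the 10 genes had an unadjusted p-value under 0.05 for ob/ob against HFD, 7 had one for HFD against LFD, and 0 had an adjusted one.

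On leaving out each mouse, the count of the 10 genes with an adjusted p-value under 0.05 went from 0 to 6 for HFD against LFD, 0 to 2 for ob/ob against LFD, and 0 to 7 for obese against LFD. The same counts over all genes went from 0 to 2812, 0 to 89 and 0 to 3326, and from 0 to 1 for ob/ob against HFD. With an unadjusted p-value under 0.05 there were 3 to 8 of the 10 for HFD against LFD, and 0 to 3 when ob/ob was compared with HFD. The median of the 10 went from 0.98 to 1.55 for ob/ob against LFD. Fits without an ob/ob mouse assume that the lone one left varies like the other groups. Centering each mouse changed the genes with an unadjusted p-value under 0.05 for obese against LFD from 2186 higher and 1639 lower to 1823 higher and 2109 lower.

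Some directions turned. The cause was not tested. Fbln5 was at -0.0739 with centering and -0.0826 with array weights for HFD against LFD, and at 0.11 and 0.16 with the acinar covariate for ob/ob and obese against LFD. Fbln1 was at -0.0219, -0.0526 and -0.0372 with that covariate for HFD, ob/ob and obese against LFD, and at -0.0307 for ob/ob against HFD. Between ob/ob and HFD, Eln was at -0.0125 and Mfap2 at -0.12 with array weights, and Fbn2 at 0.0323 with the block. On leaving out each mouse, Fbln5 went from -0.17 to 0.12 (HFD), -0.56 to 0.34 (ob/ob) and -0.28 to 0.17 (obese) against LFD. Between ob/ob and HFD the ranges were -0.57 to 0.33 for Fbln5, -0.14 to 0.45 for Eln, -0.49 to 0.51 for Fbln1, -0.30 to 1.37 for Fbln2, -0.18 to 0.25 for Mfap2, -0.24 to 0.18 for Mfap5 and -0.42 to 0.25 for Fbn2.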
